A study of Danio rerio with 4 samples.

Results

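Fgf8 and the feedback genes of the Fgf pathway were followed in cells of the zebrafish gastrula. The genes were taken by symbol: fgf8a, fgfr1a, dusp4, dusp6, spry1, spry2, spry4, il17rd, etv4 and etv5b. These 10 symbols matched 12 of the 32266 gene rows of the deposited table, and 8 rows held at least 1 UMI (unique molecular identifier, the tag that marks 1 captured transcript). The symbol table used here gives human-style names without the paralogue letter to several genes. FGF8 and FGFR1 each belong to a pair of rows, and 1 row of each pair had 0 UMIs in all 4 libraries. The rows with UMIs, ENSDARG00000003399 and ENSDARG00000011027, are written fgf8 and fgfr1, since the table does not say which paralogue each one is.

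Fgf8 is a secreted ligand that binds Fgf receptors and switches on the Ras-ERK kinase cascade. In the zebrafish gastrula it is known from the margin and the prospective hindbrain, where Fgf signalling patterns mesoderm, the dorsoventral axis and the neural plate. The cascade switches on its own inhibitors: dual-specificity phosphatases that dephosphorylate ERK, Sprouty proteins that act on the Ras-ERK branch, and the membrane protein Sef, encoded by il17rd. The ETS factors encoded by etv4 and etv5b are transcriptional targets of the same signal, and RNA levels of such genes are commonly used as a readout of Fgf activity.

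All 4 libraries came from AB-strain embryos at 9 hours post fertilization (hpf), and all held cells without green fluorescent protein (GFP), taken by fluorescence-activated sorting. In 2 libraries, lots 1 and 2 of the β-catCA mosaics, the embryos also carried scattered cells with β-catCA, a constitutively active β-catenin that turns on Wnt signalling. In the other 2, the control mosaics, the scattered cells carried GFP alone. The sorted cells were thus the unmarked cells of each mosaic, and the series compares them to learn how cells next to cells with abnormal Wnt activity respond. The promoter behind the transgenes, the number of embryos per lot and whether lots were separate clutches were not stated in the labels, so the p-values cover the spread of these particular samples, and that spread may be technical.

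Gene UMIs came to 65098 in β-catCA lot 1, 8403 in β-catCA lot 2, 61304 in control lot 1 and 59260 in control lot 2. Levels are counts per 1000000 gene UMIs scaled by trimmed-mean factors (CPM). CEL-Seq2 counts transcript 3′ ends, so the levels of different genes can be set side by side without a length correction. One UMI stood for 15.2 to 16.5 CPM in the 3 deeper libraries and for 124.5 CPM in β-catCA lot 2. A count of 0 therefore allowed up to 373.4 CPM in β-catCA lot 2 and up to 45.75, 48.3 and 49.4 CPM in β-catCA lot 1 and control lots 1 and 2. Intervals and these limits cover counting error only.

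No change of Fgf8 or of an Fgf feedback gene between the groups was detectable at this depth. Of the 8 genes with UMIs, 5 (fgf8, dusp6, il17rd, etv4 and etv5b) passed the filter on low counts, and 0 of these 5 passed edgeR's quasi-likelihood test at an adjusted p of 0.05, with 0 also at an unadjusted p under 0.05. Over all 1071 tested genes the test called 9, or 0.840%, so 0 of 5 is near that background. An edgeR unadjusted p under 0.05 was found in 112 of the 1071, or 10.5%, and 0 of 5 is near that share too. Fitted log2 changes, β-catCA mosaic minus control, were above 0 for 3 of the 5 and below 0 for 2, with a median of 0.05 against -0.03 over all tested genes. In 0 of the 5 did both libraries of one group lie above both of the other, a separation seen in 40.8% of the tested genes. DESeq2 and limma-voom also called 0 of them, and over all genes called 1 of 8640 and 2 of 1071. At an unadjusted p under 0.05 they had 0 and 1 (dusp6) of the 5. No share over all genes is given for these unadjusted counts, so they cannot be set against a background.

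**Figure D1:**
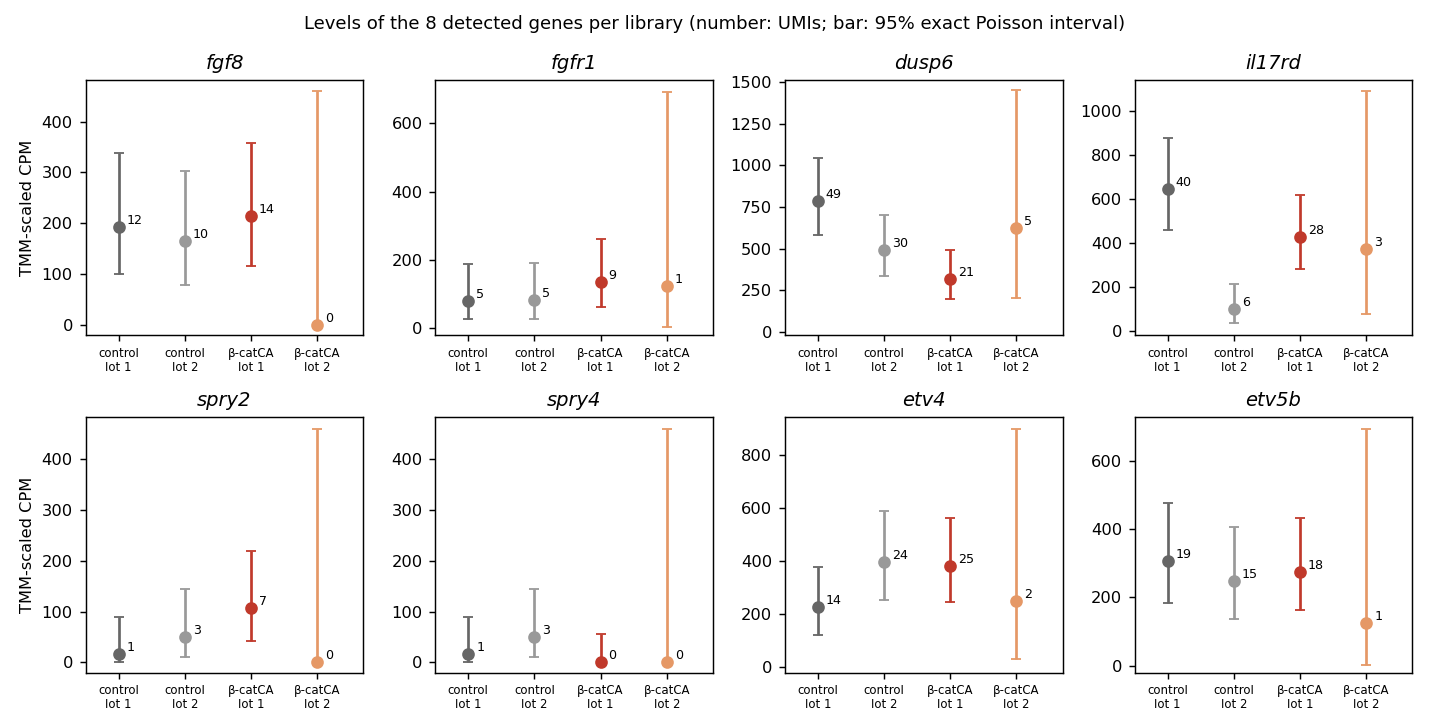
Levels of the 8 detected genes in each library, in TMM-scaled CPM on linear axes that differ between panels. Points are single libraries (grey control, red and orange β-catCA), bars are 95% exact Poisson intervals and numbers are UMIs. The intervals of β-catCA lot 2 are the widest in every panel, and il17rd stands at 40 UMIs in control lot 1 and 6 in control lot 2.

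In the controls the genes ordered by mean CPM as dusp6, il17rd, etv4, etv5b, fgf8, fgfr1 and, level with each other, spry2 and spry4. The mean of dusp6 was 641.4 ± 208 CPM (SD, n = 2), higher than that of 97.3% of the 8640 genes with a UMI. fgf8 was at 178.9 ± 20.2 CPM (SD, n = 2), higher than 89.4% of those genes. Neighbours from dusp6 to etv5b did not differ beyond the spread between the control lots, since il17rd alone ran from 98.8 to 644.0 CPM and etv4 from 225.4 to 395.2 CPM. The ERK phosphatase gene dusp4 and the Sprouty gene spry1 had 0 UMIs in all 4 libraries. By count they lay under the limits given above, which cover counting error only and not transcripts that the counting missed.

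fgf8, the ligand gene, had 14 UMIs in β-catCA lot 1, 0 in β-catCA lot 2, and 12 and 10 in control lots 1 and 2. In CPM these were 213.5, 0, 193.2 and 164.7. The 3 deep libraries thus lay close together, and at their pooled share of UMIs 1.63 UMIs would fall in β-catCA lot 2. A count of 0 in that library, found in 13.4% of the tested genes, allows more than the level of any other library. The fitted log2 change of 0.05 (SE 0.57) carried a 95% interval of -1.10 to 1.21 (edgeR adjusted p = 0.99), which spans 0.466-fold to 2.31-fold. The sign turned without the filter, by DESeq2, by limma-voom, with the lot number as a replicate block and without control lot 2. No direction can therefore be given. Without β-catCA lot 1 the remaining lot had no UMI, and no fold was computed.

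fgfr1 encodes a receptor for Fgf8. Lots 1 and 2 from β-catCA embryos held 9 and 1 of its UMIs, and those from control embryos 5 and 5, or 137.2 and 124.5 against 80.5 and 82.3 CPM. The groups did not overlap, but the level of β-catCA lot 2 was that of a single UMI. Among all 8640 genes with a UMI, 532, or 6.16%, had both β-catCA libraries above both controls. Such a gene needs a UMI in β-catCA lot 2, and only 2204 genes had one. The share among genes that could separate in this way was thus larger than 6.16%. In the fit without the filter, which covered 8640 genes, the log2 change of fgfr1 was 0.57 (SE 0.81, edgeR adjusted p = 0.77) and became -0.02 without β-catCA lot 1. Fits without the filter use scaling factors of their own, unlike those behind the CPM. By CPM, β-catCA lot 2 alone still lay above both control lots.

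dusp6 encodes a cytoplasmic phosphatase that inactivates ERK, and it held the most UMIs of the set. Lots 1 and 2 from β-catCA embryos held 21 and 5 UMIs, and control lots 1 and 2 held 49 and 30. These counts stood for 320.2 and 622.4 CPM with β-catCA and for 788.9 and 494.0 CPM in the controls. β-catCA lot 1 was the lowest of the 4 libraries, while β-catCA lot 2, on 5 UMIs, lay between the control lots, so the groups overlapped. The log2 change of -0.80 (SE 0.43) carried a 95% interval of -1.67 to 0.07 (edgeR unadjusted p = 0.070, adjusted p = 0.53). It was below 0 in all 11 alternative fits, which draw on the same 4 libraries and are not independent of each other. With 1 library left out it came to -1.09 (control lot 2), -1.01 (β-catCA lot 2), -0.42 (control lot 1) and -0.06 (β-catCA lot 1), with edgeR adjusted p-values of 0.67, 0.28, 0.93 and 0.98.

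il17rd encodes Sef, a transmembrane protein known in zebrafish as an antagonist of Fgf signalling. Its counts were 28 and 3 UMIs in lots 1 and 2 with β-catCA, against 40 and 6 in control lots 1 and 2. The levels were 427.0 and 373.4 CPM with β-catCA, against 644.0 and 98.8 CPM. Both β-catCA lots fell between the control lots, which differed from each other 6.52-fold, with an exact interval for counting error from 2.75 to 18.8. That was the second largest ratio between the control lots among the 1071 tested genes. The larger one, 6.84-fold, was that of UBA2 on 14 and 2 UMIs, named here after its values were seen. A ratio of 2-fold or more between the control lots was found in 11.5% of the tested genes and in 1 of the 5 tested here, il17rd. Its fitted change of 0.16 (SE 0.55, edgeR adjusted p = 0.95) depended on which control lot was used: leaving out control lot 1 gave 2.04 (edgeR adjusted p = 0.15), and leaving out control lot 2 gave -0.63 (edgeR adjusted p = 0.94).

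**Figure D2:**
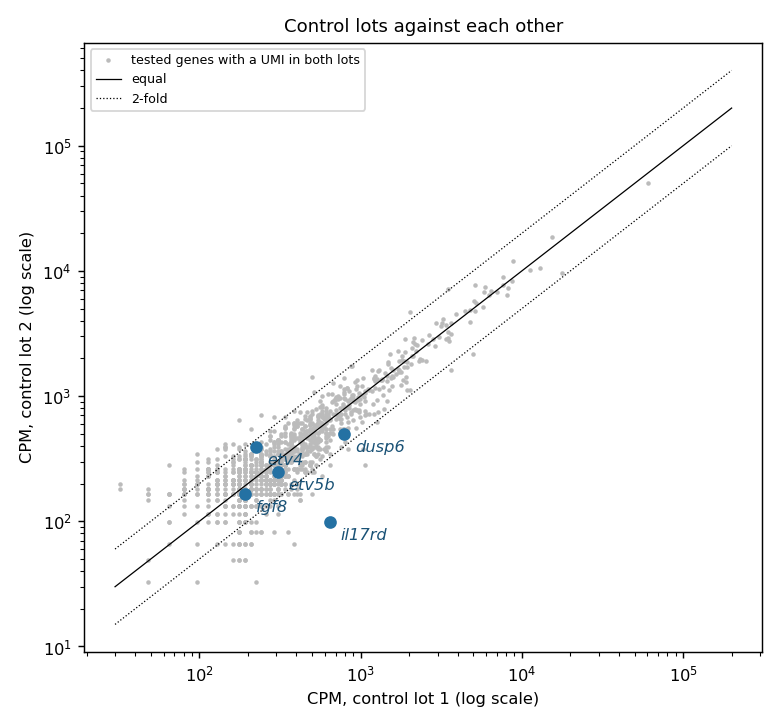
CPM of tested genes in control lot 1 (x axis) and control lot 2 (y axis), both on log scales, for genes with a UMI in both lots, with the 5 tested Fgf genes in blue, an equality line and dotted 2-fold lines. il17rd lies far below the lower 2-fold line, at 644.0 and 98.8 CPM, while the other 4 lie within the 2-fold lines.

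The Sprouty genes were close to the limit of counting. For spry2, 7 and 0 UMIs were counted with β-catCA and 1 and 3 in the controls, and for spry4, 0 and 0 against 1 and 3. spry2 was thus highest in β-catCA lot 1, at 106.7 CPM, and spry4 was seen in the controls alone, at 16.1 and 49.4 CPM. For spry2 the fit without the filter gave a log2 change of 1.32 (SE 1.01; 95% interval -0.65 to 3.29; edgeR adjusted p = 0.77), and leaving out control lot 1 or 2 gave 0.73 or 2.27. For spry4 both groups were at or near the limit of a count of 0, and no fold is given.

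No difference in the ETS factor genes was detected between the groups. For etv4, 25 and 2 UMIs were counted with β-catCA and 14 and 24 in the controls, or 381.2 and 248.9 against 225.4 and 395.2 CPM. The control lots held both the lowest and the highest level. The fit gave a log2 change of 0.22 (95% interval -0.73 to 1.16, edgeR adjusted p = 0.93), whose sign turned by DESeq2, without β-catCA lot 1 and without control lot 1. For etv5b, the counts were 18 and 1 UMIs with β-catCA against 19 and 15, or 274.5 and 124.5 against 305.9 and 247.0 CPM. Its 3 deep libraries lay within a narrow range, and 2.35 UMIs would fall in β-catCA lot 2 at their share. The log2 change of -0.12 (95% interval -1.15 to 0.90, edgeR adjusted p = 0.96) was 0.04 without control lot 1 and -1.15 without β-catCA lot 1.

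**Figure D3:**
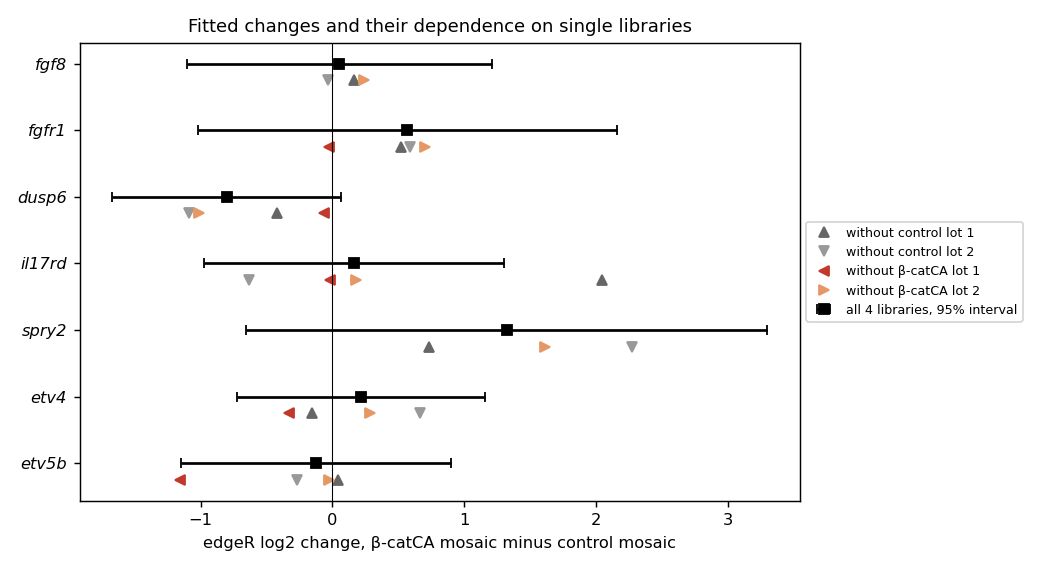
Fitted edgeR log2 change of 7 genes on the x axis (β-catCA mosaic minus control mosaic; black squares, with 95% intervals), and below each the value with 1 library left out (triangles). Every interval includes 0. dusp6 stays below 0 in each case, while il17rd ranges from -0.63 to 2.04. The fits of fgf8 and spry2 without β-catCA lot 1 are not drawn, since their remaining β-catCA lot had 0 UMIs.

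Together the 8 genes held 122 UMIs in β-catCA lot 1, 12 in β-catCA lot 2, 141 in control lot 1 and 96 in control lot 2. These were 0.187%, 0.143%, 0.23% and 0.162% of the gene UMIs. The summed levels were 1860 and 1494 CPM against 2270 and 1581 CPM, so the groups overlapped and the control lots differed 1.44-fold. The group means were 1677 ± 259 and 1925 ± 487 CPM (SD, n = 2 each), a log2 ratio of -0.20 that turned to 0.085 without control lot 1. The sum carries no test, because its genes were chosen with results of these data known. At the pooled share of the other 3 libraries, 16.2 of these UMIs would fall in β-catCA lot 2, where 12 were counted. In bulk RNA of this kind, fewer cells that express a gene and less RNA per cell cannot be told apart.

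The make-up of these UMIs, which does not depend on scaling between libraries, also varied within groups. dusp6 supplied 34.8% of them in control lot 1 (95% exact binomial interval 26.9% to 43.2%) and 31.2% in control lot 2 (22.2% to 41.5%). In β-catCA lot 1 its share was 17.2% (11% to 25.1%), below both controls, and in β-catCA lot 2 it was 41.7% of 12 UMIs (15.2% to 72.3%). il17rd supplied 28.4% in control lot 1 (21.1% to 36.6%) and 6.25% in control lot 2 (2.33% to 13.1%), against 23% and 25% in the β-catCA lots. The ETS factor genes together supplied 23.4% and 40.6% in control lots 1 and 2 and 35.2% and 25% in β-catCA lots 1 and 2. By share, control lot 1 was thus richer in il17rd. The share of etv4 was 9.93% in control lot 1 and 25% in control lot 2. In CPM, its ratio of control lot 1 to lot 2 was 0.57, with an exact interval of 0.27 to 1.15 that includes 1. A share also rises when another gene of the set falls, so a higher level of etv4 in control lot 2 is not shown. Such intervals compare libraries, not conditions.

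**Figure D4:**
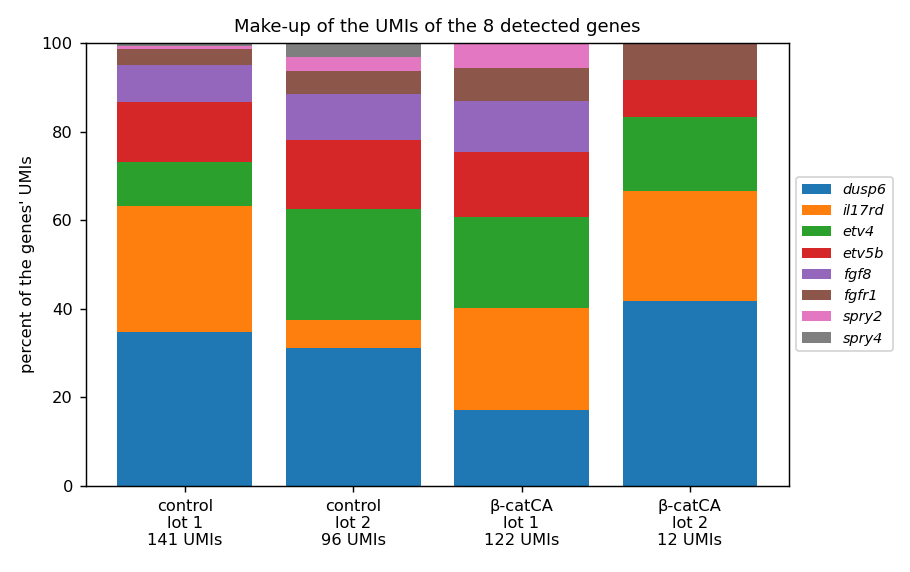
Percent of the UMIs of the 8 detected genes that each gene supplied, per library, with the number of UMIs under each bar. dusp6 takes 34.8% and 31.2% in the control lots and 17.2% in β-catCA lot 1, and il17rd takes 28.4% in control lot 1 and 6.25% in control lot 2.

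Other genes of the pathway were read from lists of their own. Of the remaining Fgf ligand genes, 2 of 11 rows had UMIs. fgf24 had 0 UMIs in either β-catCA lot against 4 and 6 in the controls, and fgf17 had 1 and 0 against 3 and 0. fgf24 was at 81.4 CPM over the pooled controls, against 40.76 CPM when 3 UMIs are set for the β-catCA mosaics as a whole. The ratio of these levels, 1.997, allows no counting error on the control side, so it is not a lower bound. At the control level 5.34 UMIs would fall in β-catCA lot 1. Without the filter fgf24 had an edgeR unadjusted p of 0.0068 and an adjusted p of 0.77, so it did not pass. In that fit 2.55% of genes had an unadjusted p under 0.05.

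Among the receptors, fgfr4 dominated. It held 272 of the 299 UMIs of fgfr1, fgfr2, fgfr3 and fgfr4, or 91%, with 84.6% to 93.8% in the 3 deep libraries and 5 of 6 UMIs in β-catCA lot 2. Counts of fgfr4 were 107 and 5 with β-catCA against 55 and 105 in the controls, or 1632 and 622.4 against 885.5 and 1729 CPM. β-catCA lot 1 lay between the control lots, while β-catCA lot 2, on 5 UMIs, lay below both. The fitted log2 change was 0.08 (95% interval -0.57 to 0.73, edgeR adjusted p = 0.96). fgfr1 supplied 6.69% of these receptor UMIs, while fgfr2 had 2 UMIs, all in control lot 2, and fgfr3 had 5, all in control lot 1.

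Of the 18 Ras-ERK transducer rows with UMIs, 1 was tested and 0 passed. It was grb2b, which encodes an adaptor between activated receptors and Ras. grb2b stood at 137.2 and 124.5 CPM with β-catCA against 370.3 and 477.5 CPM, on 9, 1, 23 and 29 UMIs. The groups did not overlap, as in 40.8% of tested genes. With a log2 change of -1.63 (95% interval -2.71 to -0.54; edgeR unadjusted p = 0.0043, adjusted p = 0.19), it did not pass. SOS2, an activator of Ras, was at 183.0 and 124.5 against 161.0 and 131.7 CPM. Other ERK feedback genes were sparse, with 32 UMIs over 10 rows and 0 tested, and RASA1 led them with 11 UMIs. Of other ERK-responsive transcription genes, IER5L was the 1 tested, with a log2 change of 0.35 (SE 0.55), and 0 passed. etv5a, the paralogue of etv5b, had 4 and 0 UMIs with β-catCA against 5 and 6.

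The list set up for Fgf-dependent mesoderm genes had 6 tested members, among them vox, and 0 passed. All 6 had fitted changes below 0, as did 51.8% of all tested genes, with a median log2 change of -0.32 against -0.03 over all tested genes. Whether each of the 6 depends on Fgf was not tested. msgn1, a presomitic mesoderm regulator, was at 1784 and 1120 CPM with β-catCA against 1529 and 2157 CPM (log2 change -0.19, SE 0.29). tbx16, a T-box gene needed for the movement of paraxial mesoderm cells, was at 1220 and 622.4 against 1417 and 1531 CPM, a log2 change of -0.44 (SE 0.30). tbxta, a T-box gene of the notochord and the tailbud, had 22 and 0 UMIs against 29 and 45 (log2 change -1.07, SE 0.46, edgeR adjusted p = 0.40). β-catCA lot 2 was the lowest library for msgn1 and tbx16, while for tbxta its count of 0 allows up to 373.4 CPM, more than the 335.5 CPM of β-catCA lot 1.

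Markers of the cells in which the Fgf genes are known to be active, and of other cells that the sort could hold, were set beside these values. Margin and mesoderm markers, which share tbxta, tbx16, tbx6 and msgn1 with the mesoderm list, had 8 of 10 rows with UMIs. They summed to 4758 and 2738 CPM with β-catCA against 4492 and 5944 CPM, and WNT8A was at 0 UMIs. Hindbrain and mid-hindbrain boundary markers had 6 of 10 rows with UMIs and summed to 625.2 and 0 against 483.0 and 576.3 CPM. Neural plate markers, with 8 of 9 rows, summed to 1327 and 1120 against 1884 and 1367 CPM. Of their 296 UMIs, sox19a held 107. Of the 4 tested, 3 had fitted changes below 0. SOX2 went the other way, at 259.2 and 248.9 CPM with β-catCA against 193.2 and 148.2 CPM. Enveloping layer markers, with 8 of 11 rows, summed to 1967 and 2489 CPM with β-catCA against 1127 and 856.2 CPM. Of their 271 UMIs, the keratin genes krt8 and krt18a.1 held 154 and 75, so the sum mainly follows these genes. The keratin gene krt4 had 7 and 1 UMIs with β-catCA against 10 and 2 (log2 change 0.005 without the filter). krt8 was the 1 listed gene of any marker list that passed, higher in the β-catCA mosaics (log2 change 1.37, SE 0.35, edgeR adjusted p = 0.038). In 8 of 11 alternative fits 0 genes were called higher, so this call was lost there. Prechordal plate markers, with 6 of 8 rows, summed to 1006 and 871.3 against 483.0 and 559.8 CPM. Of their 137 UMIs, frzb and ctslb held 40 each, with fitted changes above 0. The listed noto went the other way, with 5 and 0 UMIs against 6 and 11 (log2 change -1.16 without the filter). It was also placed in the mesoderm list, so it is no marker of the prechordal plate alone. Endoderm markers, with all 7 rows, summed to 625.2 and 746.8 against 933.8 and 708.0 CPM. Yolk syncytial markers had 2 of 6 rows with UMIs and summed to 122.0 and 0 against 96.6 and 98.8 CPM, on 20 UMIs, of which GATA3 held 19, while mxtx2 and HNF4A were at 0. Germ cell markers had 3 of 6 rows with UMIs and 7 UMIs in all, 3 of them from NANOS3, while DDX4 was at 0. The part of these marker levels in the values of the Fgf genes was not tested.

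**Figure D5:**
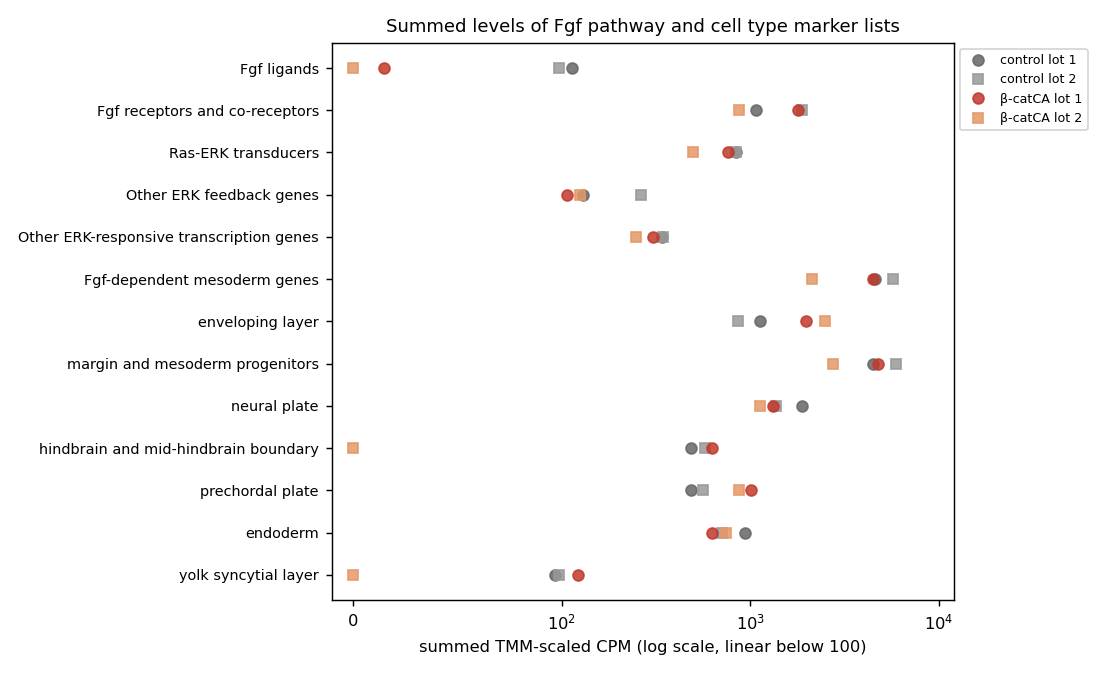
Summed CPM per library of the Fgf pathway lists (without the 10 genes themselves) and of the marker lists, on a log scale that is linear below 100, with grey for control and red and orange for β-catCA lots. Germ cell markers, with 7 UMIs in all, are left out. The enveloping layer and prechordal plate sums of both β-catCA lots lie above those of both control lots. Those of neural plate markers and of each pathway list except the receptor list lie below both. In β-catCA lot 2 these pathway sums rest on 0 (ligands), 4 (transducers), 1 (feedback), 2 (transcription) and 17 (mesoderm) UMIs. grb2b holds 62 of the 157 transducer UMIs. IER5L of the transcription list and SOX2 of the neural plate list are higher in both β-catCA lots. Among single tested genes, 40.8% separate in either direction, and no such share was computed for sums. β-catCA lot 2 has 0 UMIs for the ligand list (and for fgf8, which is not in it), hindbrain markers and yolk syncytial markers. A count of 0 there allows up to 373.4 CPM.

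The 5 tested genes whose profile over the 4 libraries was closest to that of the summed Fgf genes were NUDC, DR1, UTP14C, taf15 and TRIM71. Closeness was the Euclidean distance between log2 CPM profiles, each centred on its own mean, over 1066 genes, and the distances ran from 0.08 to 0.16. Each of the 5 was highest in control lot 1 by CPM, as was the sum that they were chosen to resemble, so this follows from the choice. With 4 libraries, 1 of them shallow, such likeness describes these libraries alone.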

How the data were processed

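Sorted GFP-negative cells went into TRIzol, and CEL-Seq2 libraries were prepared from their RNA, per the labels' protocols. The deposited table holds UMI counts, as whole numbers that the authors did not normalize, for each Ensembl gene and library. Per the submitters' processing notes, the tools were HTSeq 0.6.1 and Bowtie2 2.3.1, with GRCz10 as genome build. The annotation release and the UMI rule were not stated there. Rows that name no gene (5 of them) held 52.4% to 58.3% of each library's counts and stayed out of library sizes and tests. A symbol was found for 8225 of the 8640 genes with UMIs. Reads of near-identical paralogues or of overlapping genes could be left out or split by the counting. No positions or sequences are given.

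Genes were tested over the whole table with edgeR 4.0.16 in R 4.3.3 (TMM factors, filterByExpr with a minimum count of 10, quasi-likelihood test with robust=TRUE, Benjamini-Hochberg adjustment at 0.05). The filter kept 1071 genes with 77.6% of gene UMIs. For genes below it, an unfiltered fit of the same design was used. limma 3.58.1 (voom) and DESeq2 1.42.0 were alternatives. The procedure was tested on simulated data. Neither pair of libraries looked like 1 library deposited again: chi-square per degree of freedom was 2.39 (β-catCA) and 1.75 (control) over genes with at least 10 UMIs in both together. The genes, lists and tests were chosen with earlier results of these data known. Named genes were the 10 genes, per list up to 4 genes with the most UMIs, list genes that passed the test, and the 5 genes with the closest profile. UBA2, tbx6, vox and the markers at 0 UMIs (WNT8A, mxtx2, HNF4A, DDX4) fall outside this rule and were named after their values were seen.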

Additional observations from a re-analysis of the deposited data

How the results depend on the processing

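The 11 alternative fits gave 73 values for 7 genes. Of these values 0 passed the threshold, 58 kept their direction and 15 turned it, and the cause was not tested. For fgfr1 and spry2 the main value is itself from the unfiltered fit, so their values without the filter kept direction by construction. fgf8 had log2 changes of -0.12 without the filter, -0.44 by DESeq2, -0.17 by limma-voom and -0.14 with the lot number as a replicate block. il17rd had -0.025, -0.069 and -0.21 without the filter, by DESeq2 and with the block, and etv4 had -0.067 by DESeq2. With single libraries left out, changes ran from -0.035 to 0.24 for fgf8, -0.025 to 0.70 for fgfr1, -0.63 to 2.04 for il17rd, 0.73 to 2.27 for spry2, -0.33 to 0.67 for etv4 and -1.15 to 0.041 for etv5b. fgf8 and spry2 have no value without β-catCA lot 1, and fgfr1 and spry2, below the filter, have none by limma-voom. The summed log2 ratio of -0.20 lay between -0.44 (control lot 2 left out) and 0.09 (control lot 1 left out), and was -0.084 with UMIs pooled over a group, -0.091 without dusp6 and -0.28 without il17rd, the last chosen after seeing the data. Shallow β-catCA lot 2 limits every value: each rests there on 0 to 5 UMIs.

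The 9 calls over the whole table all stayed with DESeq2 size factors in edgeR. They became 1 with upper-quartile factors, 2 with library totals and 0 without the filter (220 genes at an unadjusted edgeR p under 0.05). DESeq2 itself gave 1 call, limma-voom 2 and the replicate block 2. Leaving out single libraries gave 1 (control lot 2), 2 (control lot 1), 4 (β-catCA lot 1) and 15 (β-catCA lot 2). Calls split into 3 higher and 6 lower, against 0 and 2 with library totals and 0 and 1 with upper-quartile factors. Higher calls also numbered 0 without the filter, by DESeq2, by limma-voom, with the replicate block and without either control lot. Lot numbers are not said to pair the groups. Deviations of lot 1 from the group means had a correlation of -0.0061 across tested genes. With β-catCA lot 2 so shallow, this value can neither show nor exclude a pairing.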
